A study of Mus musculus with 6 samples.

Results

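The 49 genes of mitosis and chromosome segregation described here were listed by their known roles, with earlier results of these data known. Their values come from spleens of mice labelled Rag2/pfp KO and of mice labelled wild type, with 3 arrays in each group. The product of Rag2 is needed to cut and join the gene segments of B and T cell receptors, and pfp stands for perforin, encoded by Prf1, which natural killer cells and cytotoxic T cells use to lyse targets. The labels give tissue and genotype, and neither a strain, an age, a sex nor a treatment is given in the sources used here. Each array was an Illumina MouseRef-8 v2 expression BeadChip, on which biotin-labelled RNA binds gene-specific probes and the brightness of a probe is its signal. A probe was counted as a member if its platform symbol, or an older form of it, was on the list, and it was tested if 3 or more of the 6 arrays detected it at p under 0.05. Of the 49 genes, 44 had a probe, 33 had at least 1 tested probe and 11 had only probes that were not tested. These 33 are set among 9158 tested genes in all, and the comparison asks how the transcripts of dividing cells differ between knockout and wild-type spleen.

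Mitosis is driven by the kinase CDK1 bound to a B-type cyclin, which is switched on by CDC25 phosphatases and helped by the Aurora and Polo-like kinases. Kinesins and microtubule-binding proteins build the spindle, kinetochores attach the chromosomes to it, and the spindle checkpoint holds back the anaphase-promoting complex until every chromosome is attached. The complex then frees separase to cut cohesin, and the cell divides by cytokinesis. Most of these transcripts are made in G2 and M phase and are scarce in resting cells, so in an adult spleen they come mainly from dividing cells. In mice the splenic red pulp is a site of red cell formation throughout life, and activated lymphocytes divide in the white pulp.

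The knockout arrays were less alike than the wild-type arrays. Values correlated at 0.939 to 0.965 between knockout arrays and at 0.98 to 0.99 between wild-type arrays, across probes, which are not independent replicates. Knockout arrays detected 12084 to 12595 probes, against 12545 to 13149 for wild-type arrays. On knockout replicate 2 both Xist probes were undetected, at 7.04 and 7.16 log2, while the other 5 arrays detected both. Eif2s3y was detected on knockout replicate 2 alone, at 8.73 log2. Knockout replicate 1 stood apart in the genes described here. No array detected the Rag2 probe and all 6 detected both Prf1 probes, so neither gene checks the genotype labels. Of 11 red pulp and stromal marker genes of the spleen, 10 were detected on enough arrays to be tested. B cell and T cell markers set the groups apart. Called lower in the knockout were 10 of 10 tested B cell genes and 9 of 11 tested T cell genes. Over all tested genes 2.66% were called lower. Whether the 3 samples of a group are 3 animals is not given in the labels, so p-values measure only the spread between these samples.

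Most tested mitosis genes had a moderately higher signal in the knockout. The median difference over the 33 tested genes was 0.76 on the log2 scale, a 1.69-fold higher signal in the knockout, against 0.02 over all 9158 tested genes. Of these genes, 30 differed by at least 0.5, against 8.15% of all tested genes, and 2 differed by more than 1. The difference was above 0 for all 44 member probes detected on all 6 arrays, against 54.7% of such probes in general. In limma's fit over 12885 probes, 3.62% of which were called, with 1.01% higher and 2.62% lower, 5 genes had an adjusted p under 0.05 and rose in the knockout, namely Rcc1, Nusap1, Aurka, Kif22 and Cdc20. Over all tested genes 1.18% were called higher, 2.66% were called lower, and 3.84% were called in either direction. No mitosis gene was called lower, and none had a difference below 0 at any p. At an unadjusted p under 0.05, 24 of the 33 were higher, against 9.49% of all genes. In 24 of the 33 genes every knockout array lay above every wild-type array, against 13.2% of all tested genes. By probe this held for 29 of 47 tested member probes, against 12.4% of all tested probes, and for 28 of the 44 detected on all 6 arrays, against 13.5% of such probes. Fewer or more dividing cells and less or more RNA per dividing cell cannot be told apart in RNA of the whole spleen.

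**Figure D1:**
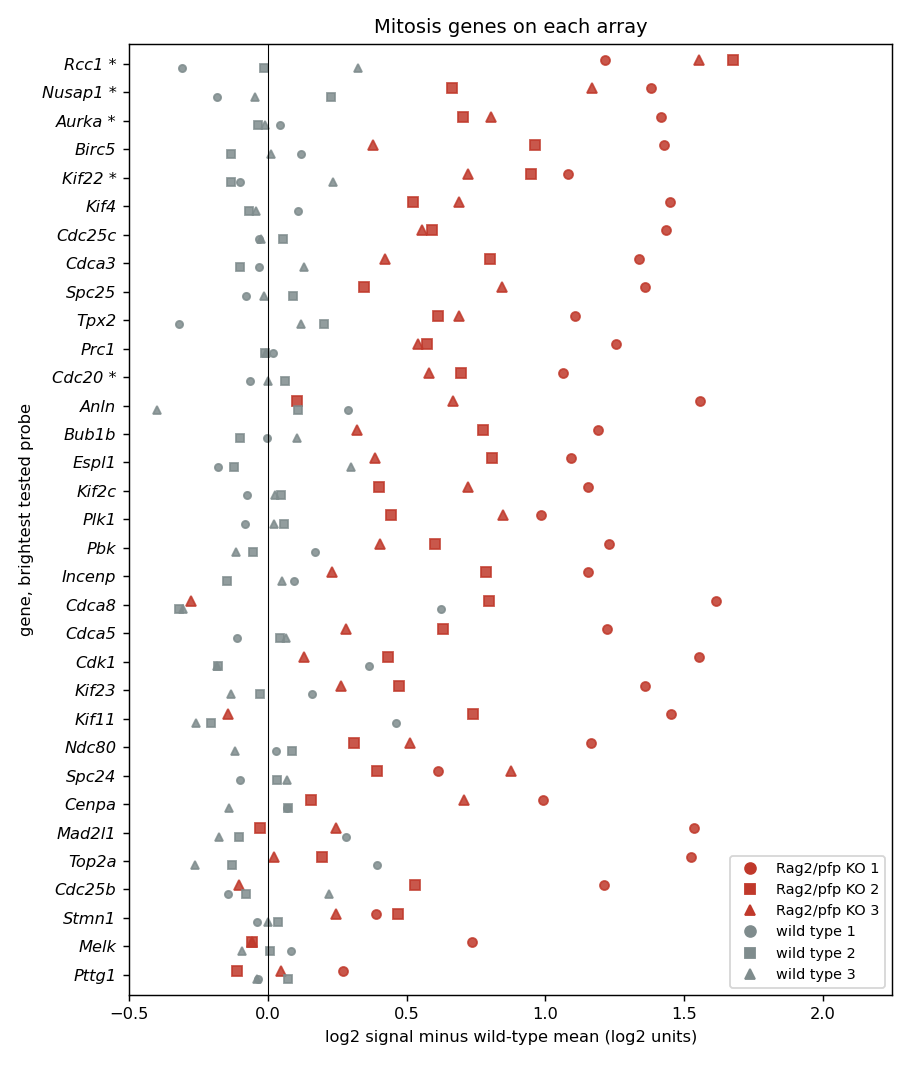
Log2 signal of the brightest tested probe of each of 33 mitosis genes on each array, minus the mean of the 3 wild-type arrays (horizontal axis, log2 units). Genes are ordered from the largest difference at the top, red marks are knockout arrays, grey marks are wild-type arrays, marker shape gives the replicate number, and a star marks an adjusted p under 0.05. Knockout replicate 1 (red circles) was the highest of the 6 arrays in 30 of 33 genes, and in 9 genes the groups overlapped.

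The number of calls rested on few arrays and on the processing. Without knockout replicate 1, 2 or 3, 6, 8 and 7 mitosis genes were called higher, and without wild-type replicate 1, 2 or 3, 0, 0 and 1 were, although 20 genes still had an unadjusted p under 0.05 in each of the last cases. By brightest probe, Rcc1 was the only gene called with neqc background correction, with median centring and with no scaling between arrays. With neqc 3.92% of all probes were called, 0.978% higher, among them a dimmer Nusap1 probe. Array weights raised the count of mitosis genes to 10. Without knockout replicate 1 the median difference was 0.55 and 31 of 33 differences were above 0. With median centring and with no scaling the median of all probes moved to -0.13 and -0.20, and the mitosis genes' median then lay 0.67 above that of all genes under both. Those settings also moved the split of all calls, which was 130 probes higher and 337 lower as reported, 20 higher and 714 lower with median centring, and 10 higher and 788 lower with no scaling.

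The promoters of this gene family share sequence features that can be set beside its common direction. Many G2 and M phase promoters carry CCAAT boxes, bound by the factor NF-Y, and a cell cycle homology region, TTTGAA or TTCGAA, at which the DREAM and MuvB complexes act. Both were searched on both strands, so that CCAAT is also read as ATTGG and TTTGAA also as TTCAAA, while TTCGAA reads the same either way. The window ran from 250 bases before to 50 bases after each annotated start in RefSeq's GRCm38.p6 annotation. A last base of one motif may also be the first base of the other. Of 40 mitosis genes with a promoter in that table, 29 (72.5%) held CCAAT, against 43.3% of 7460 tested genes and 41.1% of all 27025 genes. Among the 27 of these mitosis genes that were tested on the arrays, 17 (63.0%) held it. At least 2 CCAAT matches were found in 20 of the 40, against 16.7% of tested genes. TTTGAA or TTCGAA was found in 31 of the 40 (77.5%), against 16.8% of tested genes and 21.7% of all genes. Among the 27 it was found in 22 (81.5%). Both motifs were found in 26 (65.0%), against 6.92% of tested genes. Close to the start the contrast was wider, with the homology region within the first 50 transcribed bases of 19 genes (47.5%), against 2.13% of tested genes. In the 250 bases before the start alone it was found in 15 genes (37.5%), against 15.1%. A match is a description of these letters and no evidence that a factor binds there.

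Of the 5 genes that rose, Cdc20, Aurka and Kif22 hold both motifs, Rcc1 holds the homology region far from its start, and Nusap1 holds neither. The 250 bases before the start of the first 4 are shown, 5′ to 3′ on the gene's strand, with matches to either motif in capitals, to let their layouts be compared. Cdc20 is at chr4:118437344-118437593 on the minus strand, Aurka at chr2:172370571-172370820 on the minus strand, Kif22 at chr7:127042421-127042670 on the minus strand and Rcc1 at chr4:132345751-132346000 on the minus strand, all in GRCm38.p6.
Cdc20: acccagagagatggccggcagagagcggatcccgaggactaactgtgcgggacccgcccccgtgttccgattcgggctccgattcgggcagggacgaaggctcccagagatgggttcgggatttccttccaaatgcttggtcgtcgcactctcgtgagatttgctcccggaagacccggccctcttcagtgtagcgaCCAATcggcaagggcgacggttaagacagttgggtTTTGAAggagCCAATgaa
Aurka: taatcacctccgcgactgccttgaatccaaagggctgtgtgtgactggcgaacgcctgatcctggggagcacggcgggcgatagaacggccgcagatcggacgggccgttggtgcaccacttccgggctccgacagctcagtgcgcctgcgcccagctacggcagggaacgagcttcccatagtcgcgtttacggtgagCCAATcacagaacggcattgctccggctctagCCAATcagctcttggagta
Kif22: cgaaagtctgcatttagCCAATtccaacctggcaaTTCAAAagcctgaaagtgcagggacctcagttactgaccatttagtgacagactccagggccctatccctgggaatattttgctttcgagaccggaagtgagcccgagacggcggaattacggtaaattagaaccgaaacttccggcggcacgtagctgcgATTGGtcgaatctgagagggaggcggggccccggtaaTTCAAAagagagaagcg
Rcc1: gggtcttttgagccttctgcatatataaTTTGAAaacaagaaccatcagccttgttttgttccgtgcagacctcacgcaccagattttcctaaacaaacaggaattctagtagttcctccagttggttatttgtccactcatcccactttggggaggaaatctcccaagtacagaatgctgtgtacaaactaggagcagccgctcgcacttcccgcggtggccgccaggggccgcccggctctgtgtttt
In Cdc20 the CCAAT boxes begin 53 and 8 bases before the start and TTTGAA begins 18 bases before it. In Aurka the boxes begin 51 and 19 bases before the start, and its homology region follows the start. In Kif22 the matches nearest the start are ATTGG at 54 bases and TTCAAA at 17 bases before it. In Rcc1 the one match begins 222 bases before the start.

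For 8 of the 19 genes whose homology region stands just after the start, the 30 bases around it are shown with the match in capitals, to show that the bases around it differ while the match is shared in 1 of its 2 forms. The 8 were chosen after the values were seen. Of the 19 genes 12 were tested, and in 9 of these every knockout array lay above every wild-type array. The groups overlapped in the other 3 (Anln, Cdc25b and Cdca8). Every knockout array also lay above every wild-type array in 24 of all 33 tested mitosis genes, a similar share. Over all tested genes this held for 13.2%. Of the genes shown Aurka, Plk1, Cenpa, Kif23, Kif4 and Spc25 are among the 9, and the probes of Ccnb2 and Bub1 were not detected.
Aurka, chr2:172370521-172370550, minus strand: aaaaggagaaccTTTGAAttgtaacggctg
Plk1, chr7:122159453-122159482, plus strand: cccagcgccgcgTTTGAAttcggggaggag
Cenpa, chr5:30666890-30666919, plus strand: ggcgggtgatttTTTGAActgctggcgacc
Kif23, chr9:61946780-61946809, minus strand: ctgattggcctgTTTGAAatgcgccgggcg
Kif4, chrX:100626072-100626101, plus strand: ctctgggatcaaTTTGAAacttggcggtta
Spc25, chr2:69206172-69206201, minus strand: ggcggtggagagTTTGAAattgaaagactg
Ccnb2, chr9:70421533-70421562, minus strand: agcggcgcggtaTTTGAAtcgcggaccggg
Bub1, chr2:127831828-127831857, minus strand: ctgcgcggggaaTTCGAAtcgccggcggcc
The match begins at transcribed base 33 in Aurka, 31 in Plk1, 17 in Cenpa, 3 in Kif23, 20 in Kif4, 25 in Spc25, 5 in Ccnb2 and 15 in Bub1. Genes with a match in this place differed in what the array could show, since Aurka rose, Plk1 missed the threshold and Ccnb2 and Bub1 had no detected probe.

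Of the engine that starts mitosis, 8 genes were listed, 7 had a probe and 4 were tested, with a median difference of 0.78 and none called. Cdc25c, a phosphatase that activates CDK1, was at 9.80, 8.95 and 8.92 log2 on knockout arrays 1 to 3, against 8.33, 8.42 and 8.34 on wild-type arrays 1 to 3. All 3 knockout arrays lay above the wild-type arrays, the first by far the most, and the difference was 0.86 ± 0.24 (SE, adjusted p = 0.111), or 0.57 without the first. A second Cdc25c probe gave 0.81 ± 0.23 (adjusted p = 0.111). Cdca3, which helps degrade the CDK1 inhibitor WEE1, was at 13.41, 12.88 and 12.50 in the knockout, against 12.05, 11.98 and 12.21 in wild type. Its groups did not overlap either, and the difference was 0.85 ± 0.23 (adjusted p = 0.101), while a second probe, also without overlap, gave 0.91 (adjusted p = 0.0903). Cdk1 itself was at 12.01, 10.89 and 10.59 in the knockout, against 10.82, 10.28 and 10.27 in wild type. Wild-type replicate 1 lay between knockout replicates 2 and 3, and the difference of 0.71 ± 0.37 (adjusted p = 0.381) became 0.28 without knockout replicate 1. Cdc25b, the phosphatase that acts earlier than Cdc25c, also overlapped between groups, with a difference of 0.55 ± 0.31 (adjusted p = 0.440) that became 0.21 without knockout replicate 1 and 0.87 without knockout replicate 3. The probes of Ccna2, Ccnb2 and Cks2, which encode cyclin A2, cyclin B2 and a CDK subunit, were not detected on any array, and no probe was matched to Ccnb1.

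Among the mitotic kinases, 5 genes were listed, 4 were tested and Aurka rose. Aurka encodes Aurora A, the kinase that matures the spindle poles. It was at 12.12, 11.40 and 11.50 log2 on knockout arrays 1 to 3, against 10.74, 10.66 and 10.69 in wild type. The wild-type arrays agreed closely and the lowest knockout array lay 0.66 above the highest of them. The difference was 0.97 ± 0.20 (limma, adjusted p = 0.0487), a signal 1.96-fold higher in the knockout, and with neqc it was 1.02 (adjusted p = 0.0665). Aurka was called in 4 of 16 alternatives. Plk1, Polo-like kinase 1, was the brightest kinase, at 12.55, 12.01 and 12.41 in the knockout, against 11.48, 11.62 and 11.59 in wild type. Its groups did not overlap and its difference of 0.76 ± 0.17 had an adjusted p of 0.0585. Pbk, a kinase active in mitotic and proliferating cells, differed by 0.75 ± 0.23 (adjusted p = 0.134), also without overlap. Melk, a kinase of proliferating and embryonic cells, was close to background in its brightest probe, which was detected on 1 knockout and 2 wild-type arrays. Its difference of 0.21 ± 0.23 (adjusted p = 0.725) became -0.057 without knockout replicate 1. A second, dimmer Melk probe was detected on all 6 arrays, without overlap, and gave 0.29 ± 0.13 (adjusted p = 0.294; 0.79 with neqc, adjusted p = 0.125). The probe of Ttk, the checkpoint kinase MPS1, was not detected.

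**Figure D2:**
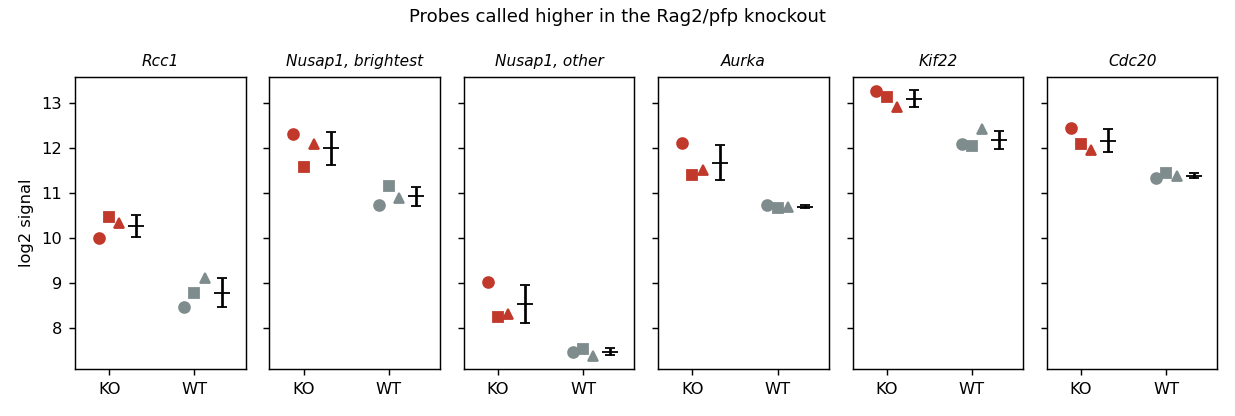
Log2 signal of the 6 probes of mitosis genes called higher in the knockout, 1 panel a probe. Marks are single arrays (circle, square and triangle for replicates 1 to 3), red for the knockout (KO) and grey for wild type (WT), and bars show the mean and SD of 3 arrays. In each of the 6 panels the 3 knockout arrays lie above the 3 wild-type arrays, and Rcc1 has the widest gap.

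The chromosomal passenger complex carries Aurora B to centromeres and the spindle midzone. Of its 4 listed genes 3 were tested and none was called, with a median difference of 0.72. Birc5, which encodes survivin, was at 13.25, 12.78 and 12.20 log2 in the knockout, against 11.94, 11.69 and 11.83 in wild type. The groups of this brightest probe did not overlap, and the difference was 0.92 ± 0.26 (adjusted p = 0.109). The other 2 Birc5 probes gave 0.91 and 0.81, both with overlapping groups. Incenp, the scaffold of the complex, was at 11.78, 11.41 and 10.86 in the knockout, against 10.72, 10.48 and 10.68 in wild type, again without overlap. Its difference was 0.72 ± 0.24 (adjusted p = 0.160). Cdca8, which encodes borealin, was at 10.55, 9.73 and 8.66 in the knockout, against 9.56, 8.61 and 8.63 in wild type. Replicate 1 was the highest array of both groups, and the difference of 0.71 ± 0.48 (adjusted p = 0.530) became 0.26 without knockout replicate 1 and 1.21 without knockout replicate 3. No probe was matched to Aurkb.

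Of the checkpoint and anaphase genes, 8 were listed, 6 were tested and Cdc20 rose. Cdc20 is the activator of the anaphase-promoting complex that the spindle checkpoint blocks. Its brightest probe was at 12.45, 12.09 and 11.97 log2 in the knockout, against 11.33, 11.45 and 11.39 in wild type. The groups stood 0.52 apart at their nearest arrays, and the difference was 0.78 ± 0.16 (limma, adjusted p = 0.0466). With neqc it was 0.80 (adjusted p = 0.0980), and this probe was called in 4 of 16 alternatives. The other 3 tested Cdc20 probes were not called, with differences of 0.83, 0.63 and 0.26 and adjusted p-values of 0.173, 0.319 and 0.727. Of these only the first had groups that did not overlap, so the probes of this gene disagree on the call and share the direction. Bub1b, the checkpoint protein BUBR1, was at 10.41, 9.997 and 9.54 in the knockout, against 9.22, 9.12 and 9.33 in wild type. Its difference was 0.76 ± 0.22 (adjusted p = 0.123), without overlap. Espl1, separase, and Cdca5, sororin, which protects cohesin, differed by 0.76 ± 0.22 (adjusted p = 0.120) and 0.71 ± 0.24 (adjusted p = 0.168), both without overlap, and Cdca5 was at 0.46 without knockout replicate 1. Mad2l1, the checkpoint protein MAD2, was at 11.25, 9.68 and 9.96 in the knockout, against 9.99, 9.61 and 9.53 in wild type. Only knockout replicate 1 lay above all wild-type arrays, and the difference of 0.58 ± 0.39 (adjusted p = 0.525) became 0.11 without it and 0.89 without knockout replicate 2. Pttg1, securin, which inhibits separase, had the smallest difference of the list, 0.07 ± 0.14 (adjusted p = 0.872), and its sign turned under 4 of 16 alternatives. The Bub1 probe was not detected, and that of Ube2c, a ubiquitin-conjugating enzyme of the anaphase-promoting complex, was detected on 2 knockout arrays and no wild-type array.

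Of the centromere and kinetochore genes, 7 were listed, 4 were tested and none was called, although in all 4 the knockout arrays lay above the wild-type arrays. Spc25, Spc24 and Ndc80 encode subunits of the NDC80 complex, which binds microtubule ends. Spc25 was at 9.91, 8.90 and 9.40 log2 in the knockout, against 8.48, 8.65 and 8.54 in wild type. Its difference was 0.85 ± 0.25 (adjusted p = 0.123), while a second, dimmer probe with overlapping groups gave 0.69. Ndc80 was at 10.24, 9.38 and 9.59 in the knockout, against 9.10, 9.16 and 8.96 in wild type. Its difference was 0.66 ± 0.23 (adjusted p = 0.179), or 0.41 without knockout replicate 1. Spc24 was 1 of 3 genes in which knockout replicate 1 was not the highest array. It differed by 0.63 ± 0.16 (adjusted p = 0.0815), and its dimmer probe gave 0.56 with overlapping groups. Cenpa, the histone H3 variant that marks centromeres, had the brightest probe of the class, at 14.20, 13.37 and 13.92 in the knockout, against 13.28, 13.29 and 13.07 in wild type. Knockout replicate 2 cleared the highest wild-type array by only 0.08, and the difference was 0.62 ± 0.22 (adjusted p = 0.196). The probes of Nuf2, the partner of Ndc80, and of Cenpe, a kinetochore kinesin, were not detected, and no probe was matched to Cenpf.

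Of 6 kinesins, motor proteins that move along or take apart microtubules, 5 were tested and Kif22 rose. Kif22 binds chromosome arms and pushes them toward the spindle equator. It was at 13.27, 13.14 and 12.91 log2 in the knockout, against 12.09, 12.05 and 12.42 in wild type. The knockout arrays were close together, unlike those of most genes of the list, and the lowest lay 0.49 above the highest wild-type array. The difference was 0.92 ± 0.16 (limma, adjusted p = 0.0315), a 1.89-fold higher signal, and 0.93 with neqc (adjusted p = 0.0646). Kif22 was called in 8 of 16 alternatives. A pseudogene, Kif22-ps, is annotated, and whether the probe also reads it was not tested. Kif4, the chromokinesin of the spindle midzone, was at 10.97, 10.05 and 10.21 in the knockout, against 9.63, 9.45 and 9.48 in wild type. This probe had no overlap and a difference of 0.89 ± 0.24 (adjusted p = 0.103), and its 2 dimmer probes gave 0.58 and 0.66 with overlapping groups. Kif2c, a microtubule depolymerase, and Kif23, a motor of the central spindle, differed by 0.76 ± 0.20 (adjusted p = 0.0926) and 0.70 ± 0.28 (adjusted p = 0.251), both without overlap, and Kif23 was at 0.37 without knockout replicate 1. Kif11, the motor that separates the spindle poles, overlapped between groups at 10.80, 10.09 and 9.20 in the knockout, against 9.81, 9.15 and 9.09 in wild type. Its difference of 0.68 ± 0.40 (adjusted p = 0.449) became 0.30 without knockout replicate 1 and 1.10 without knockout replicate 3. The probe of Kif20a, a motor of the cleavage furrow, was not detected.

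Genes of spindle assembly and spindle microtubules held the largest differences, with 2 of 5 tested genes called out of 6 listed. Their differences ran from 0.37 to 1.48, with a median of 0.80. Rcc1 is the nucleotide exchange factor on chromatin that makes Ran-GTP, the signal for spindle assembly, and it acts in nuclear transport in interphase cells as well. It was at 9.998, 10.46 and 10.34 log2 in the knockout, against 8.47, 8.77 and 9.11 in wild type. Here knockout replicate 1 was the lowest of its group, and the groups stood 0.89 apart. The difference was 1.48 ± 0.20 (limma, adjusted p = 0.0134), a 2.79-fold higher signal, and it was the fourth largest increase among 9158 genes. It was called in 14 of 16 alternatives and had an adjusted p of 0.0602 without wild-type replicate 1 and of 0.0835 without wild-type replicate 2.

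Nusap1 encodes a protein that bundles microtubules around chromosomes. Its brightest probe was at 12.31, 11.59 and 12.09 in the knockout, against 10.74, 11.15 and 10.88 in wild type. A second probe was at 9.02, 8.25 and 8.31 in the knockout, against 7.47, 7.53 and 7.38 in wild type. Neither probe overlapped between groups, and both gave a difference of 1.07, with SEs of 0.21 and 0.22 and adjusted p-values of 0.0433 and 0.0482. With neqc the differences were 1.11 (adjusted p = 0.0552) and 2.03 (adjusted p = 0.0103), so background correction changed the dimmer probe most. Each of these probes was called in 5 of 16 alternatives. One more Nusap1 probe was not detected on any array.

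Prc1, which cross-links microtubules of the central spindle, was at 14.00, 13.32 and 13.29 log2 in the knockout, against 12.77, 12.74 and 12.74 in wild type. Its groups did not overlap, and the difference of 0.79 ± 0.21 had an adjusted p of 0.0912. Tpx2, the activator of Aurora A on the spindle, differed by 0.80 ± 0.20 (adjusted p = 0.0807), also without overlap. Stmn1, the microtubule destabiliser stathmin, was near background, detected on 3 knockout arrays and 1 wild-type array, and its difference was 0.37 ± 0.12 (adjusted p = 0.169). With neqc that difference was 1.01 (adjusted p = 0.0518). Both Hmmr probes, for a spindle-associated hyaluronan receptor, were not detected.

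The last steps, chromosome decatenation and cytokinesis, had 1 tested gene each, and neither was called. Top2a, topoisomerase II alpha, was at 12.49, 11.16 and 10.99 log2 in the knockout, against 11.36, 10.84 and 10.71 in wild type. Replicate 1 was the highest array of both groups, and the difference of 0.58 ± 0.40 (adjusted p = 0.537) became 0.11 without knockout replicate 1. Anln, anillin, a scaffold of the contractile ring, was at 12.47, 11.01 and 11.58 in the knockout, against 11.20, 11.02 and 10.51 in wild type. The groups overlapped, and the difference of 0.78 ± 0.37 (adjusted p = 0.330) became 0.38 without knockout replicate 1. A second Anln probe with overlapping groups gave 0.48 (adjusted p = 0.303). The Ect2 probe was not detected, and no probe was matched to Racgap1 or to Mki67, the gene of the proliferation antigen Ki-67.

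The members' values varied more among knockout arrays than among wild-type arrays. The SD over 3 arrays had a median of 0.45 in the knockout and 0.12 in wild type, against 0.27 and 0.13 over all tested genes, and it was larger in the knockout for 30 of 33 genes. Relative to the wild-type mean, the 33 genes averaged 1.20, 0.54 and 0.46 on knockout arrays 1 to 3, against 0.04, -0.02 and -0.02 on wild-type arrays 1 to 3. All 33 genes lay above the wild-type mean on knockout replicate 1, as did 30 on replicate 2 and 29 on replicate 3. Knockout replicate 1 exceeded the mean of replicates 2 and 3 by a median of 0.72, with a range of -0.40 in Rcc1 to 1.43 in Mad2l1. The corresponding median over all tested genes was -0.06.

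Wild-type replicate 1 showed a related order of genes at a smaller size. Its excess over wild-type replicates 2 and 3 had a median of -0.01 and ran from -0.48 in Tpx2 to 0.93 in Cdca8. In 6 genes that excess was above 0.3, and these 6, Anln, Cdca8, Cdk1, Kif11, Mad2l1 and Top2a, were among the 9 genes whose groups overlapped. A high wild-type replicate 1 raises the top of its group and so itself makes overlap more likely, and this is no separate result. Across the 33 genes the excess of replicate 1 in the knockout and in wild type correlated at r = 0.779 (Spearman's rho 0.715), and across all tested genes at r = 0.466. Genes are not independent replicates, and each group's points share 3 arrays. The headers of the raw signal give the 2 arrays numbered 1 the same sample number, which no other arrays share. What that number means is not given. The excess therefore stands as a description, and its source was not tested.

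**Figure D3:**
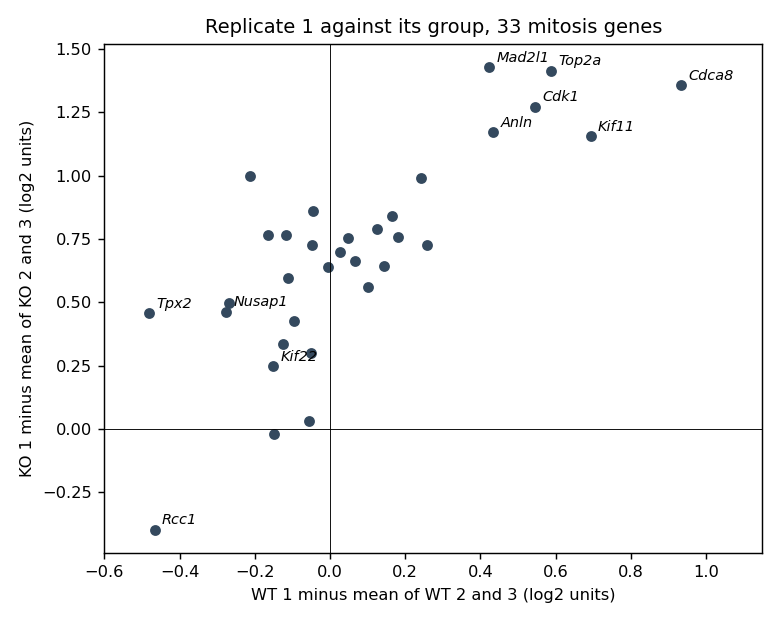
Excess of replicate 1 over the mean of replicates 2 and 3, in the knockout (vertical axis, log2 units) and in wild type (horizontal axis, log2 units), for 33 mitosis genes, 1 point a gene. Cdca8, Kif11, Top2a, Cdk1, Anln and Mad2l1 lie at the upper right, high on array 1 of both groups. Rcc1 is the lowest point, at the lower left, with -0.40 and -0.47, and Spc24 also lies below 0 on both axes.

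Rag2 lies on chromosome 2, as do 6 tested members, including the called genes Aurka and Nusap1. These 6 had a median difference of 0.83, against 0.72 for the 27 tested members on other chromosomes. In RefSeq's gene order 159 protein-coding genes lie between Rag2 and Nusap1 and 749 between Rag2 and Aurka. The other 3 called members, Rcc1, Kif22 and Cdc20, lie on chromosomes 4, 7 and 4.

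Other genes of the cell cycle, listed by role, were set beside the members. Over all tested genes 1.18% were called higher, 2.66% were called lower and 53.7% had a difference above 0. Of 51 further tested mitosis genes 4 rose, 0 fell and 50 had a difference above 0, with a median of 0.58. The 4 were Gtse1, a G2 and S phase protein that binds microtubules, at 1.01 ± 0.19 (adjusted p = 0.0365), Spag5, the spindle protein astrin, Kif15, a spindle kinesin, and Cdca2, a phosphatase regulator on chromosomes. Of 43 tested DNA replication genes 5 rose and 0 fell, all differences were above 0 and the median was 0.70. Largest among the 5 was Mcm7, which encodes part of the helicase that opens the DNA, with 1.45 ± 0.28 (adjusted p = 0.0400), and next was Uhrf1, which maintains DNA methylation, with 1.01 ± 0.16 (adjusted p = 0.0220). Chaf1b, of the chromatin assembly factor, and Mcm10, a replication initiation factor, rose by 0.90 ± 0.17 and 0.88 ± 0.15. Differences in S phase genes were thus close in size to those in mitosis genes, and no test was made between the lists.

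The regulators of these genes and the genes that hold back division were read in the same way. Over all tested genes 1.18% were called higher and 2.66% lower, so 1 call in a short list says little. Of 18 tested cell cycle transcription regulators, with a median difference of 0.45, 1 rose, the S phase activator E2f1, by 1.09 ± 0.18 (adjusted p = 0.0247). The 2 brightest genes of this list, E2f2, a relative of E2f1, and Nfyc, a subunit of the CCAAT-binding factor NF-Y, differed by 0.66 ± 0.21 (adjusted p = 0.15) and 0.22 ± 0.16 (adjusted p = 0.579). Mybl2 and Foxm1, which drive G2 and M phase genes, differed by 0.997 ± 0.25 (adjusted p = 0.0844) and 0.74 ± 0.25 (adjusted p = 0.174), and were named for their role after their values were seen. Of 19 tested subunits of the anaphase-promoting complex and cohesin and their partners 1 rose, Fzr1, the activator of that complex in late mitosis and G1, by 0.83 ± 0.17 (adjusted p = 0.0446). Next brightest was Anapc5, a scaffold subunit, with a difference of 0.49 ± 0.18 (adjusted p = 0.205). The median of these 19 was 0.20, well under that of the mitosis genes, and 5 of them had a difference below 0. Of 15 tested CDK inhibitors and antiproliferative genes 0 rose and 1 fell, with a median of 0.02 and 4 at an unadjusted p under 0.05. The one was Klf2, a factor of quiescent T cells, at 10.28, 10.88 and 10.62 log2 in the knockout, against 11.77, 11.94 and 11.89 in wild type, a difference of -1.27 ± 0.17 (adjusted p = 0.0130). The brightest of this list, Btg1, an antiproliferative gene of resting lymphocytes, differed by -0.81 ± 0.20 (adjusted p = 0.0744), and Gadd45a, a stress-induced growth arrest gene, by 0.65 ± 0.43 (adjusted p = 0.510). Of 146 tested genes in these 5 lists 11 were called higher and 1 lower, against 1.18% and 2.66% of all tested genes. Without wild-type replicate 1, 2 or 3 the counts higher were 0, 0 and 2 and 0 were lower, with 51, 43 and 55 genes at an unadjusted p under 0.05, and without knockout replicate 2 they were 19 higher and 1 lower.

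**Figure D4:**
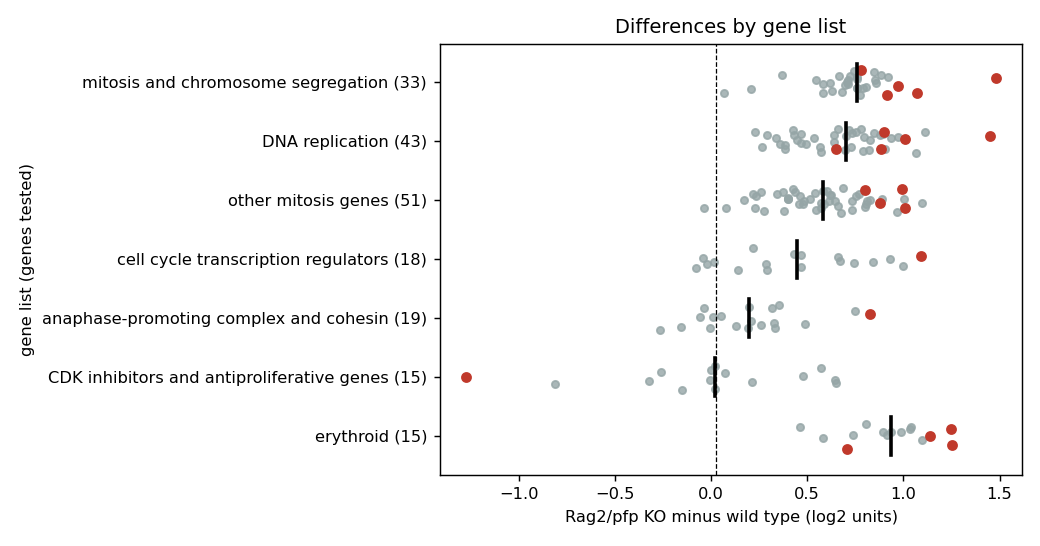
Difference between knockout and wild type (horizontal axis, log2 units) for each tested gene of 7 lists, with the number of tested genes in brackets. Red points have an adjusted p under 0.05, thick bars are list medians, and the dashed line is the median of all tested genes, 0.02. The medians of the mitosis genes (0.76), DNA replication genes (0.70) and erythroid genes (0.93) stand right of the other lists, and the median of the CDK inhibitors and antiproliferative genes lies at the dashed line, with Klf2 the lowest of them.

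Markers of the cell types that divide in the spleen were read on the same arrays. Over all tested genes 1.18% were called higher and 2.66% lower. The erythroid list had 15 of 17 genes with a probe tested, 4 of them higher, among them Ank1, the ankyrin of the red cell skeleton, and Klf1, an erythroid transcription factor, and 0 lower, with a median difference of 0.93. Its genes averaged 1.46, 0.65 and 0.66 above the wild-type mean on knockout arrays 1 to 3, against 0.07, 0.01 and -0.08 on wild-type arrays 1 to 3. Knockout replicate 1 stood far above the other arrays and knockout replicates 2 and 3 lay close to each other. The summed linear signal of the erythroid genes was 132247 to 196247 in the knockout, against 88696 to 97778 in wild type, and that of the mitosis genes was 86577 to 136848 in the knockout, against 57456 to 60474 in wild type. The part of red cell precursors in the mitosis signal was not tested.

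Lists of other dividing or blood-forming cells were read in the same way, against the same 1.18% called higher and 2.66% called lower. Granulocyte precursor genes had 6 of 9 tested genes called lower and 0 higher, and averaged -2.36, -1.28 and -1.56 on knockout arrays 1 to 3, against -0.0035, 0.13 and -0.13 in wild type, with a summed signal of 12150 to 29538 in the knockout and 57978 to 69766 in wild type. Germinal centre B cell genes had 3 tested genes, 0 called in limma's fit and 0 at an unadjusted p under 0.05, with a median of -0.12. The 4 stem and progenitor genes tested also had 0 calls and 0 at an unadjusted p under 0.05, with a median of 0.14. Megakaryocyte genes had 1 of 6 called higher and averaged 0.56, 0.85 and 0.89 on knockout arrays 1 to 3, against -0.06, 0.28 and -0.21 in wild type, with the lowest knockout value on replicate 1. The parts of these cells in the mitosis signal were not tested.

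**Figure D5:**
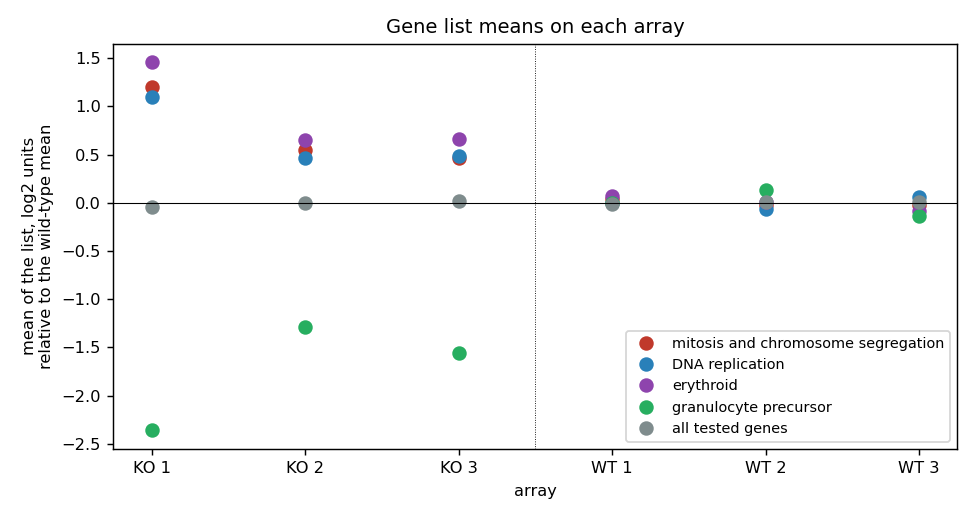
Mean log2 signal of 4 gene lists and of all tested genes on each array, relative to the wild-type mean of each gene (vertical axis, log2 units), with knockout arrays (KO) left of wild-type arrays (WT). Mitosis, DNA replication and erythroid genes are highest on KO 1, at 1.20, 1.10 and 1.46, and granulocyte precursor genes are lowest there, at -2.36.

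The members that were not tested account for the rest of the list. Of 66 member probes 47 were tested and 19 were not, 17 of them detected on no array and 2 on 2 arrays. Their values lay between 6.72 and 7.61 log2, near the array median of 7.24, and no differences were read from them. The Ube2c probe and a Melk probe were each detected on 2 knockout arrays and no wild-type array. In Anln, Cdc25c, Cdk1, Melk, Ndc80 and Nusap1 an untested probe stood beside a tested probe of the same gene, so such a probe does not show that a transcript is absent. The 5 genes with no matched probe, Ccnb1, Aurkb, Cenpf, Racgap1 and Mki67, were not analysed here.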

How the data were processed

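The members and all gene lists were chosen with earlier results of these data known. The authors deposited a table of raw signal intensity, the linear brightness of each probe, with a detection p-value for each, per the file headers. They also deposited log2 values, whose method is not given in the sources used here. These matched quantile-normalized log2 raw signal to within 0.0000005 and were taken as the main values. No background was subtracted, so differences of dim probes are understated, and quantile normalization removes a shift shared by most transcripts. The submitters' processing notes name GenomeStudio 2011.1, and 500 ng of RNA was labelled per sample per the labels' protocols.

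Probes detected (p under 0.05) on at least 3 of 6 arrays were tested, 12885 of 25697. limma 3.58.1 (R 4.3.3) was used with lmFit and eBayes, group as the only term and Benjamini-Hochberg adjustment over these probes, two-sided, called at adjusted p under 0.05. The fit was tested on simulated data. A gene was represented by its brightest tested probe. Symbols came from the platform annotation, updated through RefSeq's gene table of GRCm38.p6, and 23978 probes had 1 symbol, 0 several and 1719 none. The files name no build, so coordinates are those of RefSeq's promoter table. Genes named with values were each called member and, in each role class, the 2 with the largest difference and the brightest, with the other members by their differences, up to 4 called genes of each other pathway list or its 2 brightest where fewer than 2 were called, and at most 2 genes of a cell type list.

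Groups and replicate numbers came from the sample titles. Arrays with the same number correlated in their deviations from group means at 0.501, -0.332 and -0.0798 for replicates 1 to 3, so the numbers were not taken to pair samples. The number of arrays, 3 a group, limits the precision. Alternatives were neqc background correction (offset 16), no scaling, median centring, cyclic loess, array weights, a trended and robust variance, 3 other detection filters, leaving out each array, a block for the replicate number, the mean of a gene's tested probes and a shorter promoter window.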

Additional observations from a re-analysis of the deposited data

How the results depend on the processing

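Directions held better than calls. Of 34 named differences of mitosis genes 6 were called with the main values, so only these could lose a call. Over 16 settings and the 34 differences, 465 values kept direction and side of the threshold. The call was lost by 56 and gained by 16 values, and 5 turned sign. Pttg1 did so with array weights (-0.0051), median centring (-0.11) and no scaling (-0.18). Without knockout replicate 1 Melk was at -0.057 and Pttg1 at -0.031, and over the settings without one replicate Melk ran from -0.057 to 0.34 and Pttg1 from -0.031 to 0.16. The median difference of the mitosis genes ran from 0.46 to 0.92. Without one replicate it was 0.55 to 0.92.

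Of 5 mitosis genes called, there were 1 with neqc, 1 with no scaling, 1 with median centring, 2 with cyclic loess, 3 of those detected on all 6 arrays, 2 with no detection filter, 10 with array weights and 0 to 8 without one replicate. Of 6 probes called, the counts were 2, 1, 1, 2, 3, 2, 11 and 0 to 9 in the same order. The further pathway lists had 11 genes higher, and 6, 1, 1 and 6 with neqc, no scaling, median centring and cyclic loess, 6 with no filter, 24 with array weights and 0 to 19 without one replicate. They had 1 lower, and 2 with no scaling, median centring or array weights, and 0 to 2 without one replicate. Over all probes 130 were higher, and 82 with cyclic loess, 20 with median centring, 10 with no scaling, 286 with array weights and 1 to 217 without one replicate. Of 337 lower there were 714 with median centring, 788 with no scaling and 111 to 421 without one replicate. The homology region was found in 37.5% of member promoters in the 250 bases before the start, because the window is shorter. The cause of the other changes was not tested.

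With the replicate number as a block, 1 mitosis gene, Rcc1 (adjusted p = 0.0127), and 1 probe were called, with 2 higher in the further lists and 33 higher and 214 lower over all probes. Of 3 knockout arrays 1 correlated best with the wild-type array of its own number.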
